A study of Mus musculus with 12 samples.

Results

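Gene expression in CD103+ dendritic cells (DC) of the mesenteric lymph nodes (MLN) was compared with that in splenic CD11c+ DC of control mice. The comparison used 6 of the 12 arrays of the series, 3 of MLN DC and 3 of splenic DC, all from Cre- control mice on the C57BL/6 background. Each MLN Cre- array held RNA of CD11c+CD103+ cells obtained by flow sorting from a pool of 4 mice. Each spleen Cre- array held RNA of CD11c+ cells obtained by magnetic sorting, with no number of mice in the labels. The other 6 arrays came from Cre+ mice, labelled as carrying a deletion of the TGF-beta receptor gene Tgfbr2, targeted in DC. Their cells were sorted in the same ways, again from pools of 4 mice for MLN, and were used to share the estimate of the spread and for a second look at the same contrast. The labels call the Cre- mice healthy and say nothing of the promoter that drove Cre, or of the ages and sexes of the mice. The cells were not treated. Of 23332 gene-level probe sets of the Mouse Exon 1.0 ST array, 14996 had 1 gene symbol, and 8324 of these (8265 genes) were retained because they lay on neither X nor Y and the higher of the 2 group means was above 7 on a quantile-normalized log2 scale. The 7 threshold fell in a dense range, with Kcng3 just inside it at 7.001 in MLN Cre- and 6.69 in spleen Cre-, and Acpp just outside it at 7.0 in MLN Cre- and 6.57 in spleen Cre-.

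DC take up antigen, move to lymphoid organs and present it to T cells. CD103, the integrin alpha E chain, marks DC that reach the MLN from the gut wall through the receptor CCR7, and these cells are known for making retinoic acid, which gives T cells gut-homing receptors. The spleen receives blood and no afferent lymph, and its CD11c+ cells include resident conventional DC of the cDC1 and cDC2 subsets, together with plasmacytoid DC and some macrophages and monocytes that also carry CD11c.

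The deposited log2 values had unlike distributions in the 2 tissues. The SD over probe sets was 1.80 to 1.88 on the MLN Cre- arrays and 2.37 to 2.39 on the spleen Cre- arrays, and the array medians were 6.74 to 6.81 in MLN Cre- and 7.03 to 7.08 in spleen Cre-. On the deposited scale the median difference, MLN Cre- minus spleen Cre-, was -0.90 over the retained probe sets, whereas it was -0.04 after quantile normalization of the 12 arrays. Levels and differences below are therefore on the quantile-normalized log2 scale unless the deposited scale is named, and a deposited difference reads against that median of -0.90. A gene is said to have risen or fallen when its limma adjusted p was under 0.05 and its difference at least 1, which is 2-fold. Tissue, method of sorting, gate and pooling differ together between the groups and cannot be told apart. In bulk RNA, fewer cells of a type and less RNA per cell cannot be told apart either. Across probe sets, the correlation between replicate arrays was 0.984 or more in MLN Cre- and 0.983 or more in spleen Cre-, and between the tissues it was 0.917 or less. Probe sets are not independent of each other.

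Over all 23332 probe sets, 14962 differed at an adjusted p under 0.05 with no minimum size (64.1%). By the rule with the minimum size, 1346 of the 8324 retained probe sets were called (16.2%). Of these, 554 rose in MLN Cre-, 6.66% of the 8324, and 792 fell, 9.51% of the 8324. These percentages are the background for the gene groups described below, which were chosen with earlier results of these data known. On the deposited scale, 241 of the 8324 rose (2.9%) and 3670 fell (44.1%). All 792 falls were falls on both scales. Of the 554 rises, 241 were rises on both scales, none was called lower on the deposited scale, and 14 had a negative deposited difference. The rises included 307 probe sets with a spleen Cre- mean of 7 or less, and the falls 399 with an MLN Cre- mean of 7 or less. The deposited values came with no detection calls, so a level of 7 or less is not shown to lie above background, and no fold is given against it. At an adjusted p under 0.05 alone, with no minimum difference, 2742 were higher (32.9%) and 3118 lower (37.5%). The 3 MLN Cre- arrays lay wholly above the 3 spleen Cre- arrays for 3026 probe sets and wholly below them for 3384. Together these are 77.0% of the 8324, so groups without overlap were the rule among retained probe sets.

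One group of rises concerned genes of other tissues. Of the 554 rises, 130 were olfactory, vomeronasal, taste or trace-amine receptors, a set examined only after its values were seen. It had 838 measured members, of which 140 were retained, and with most levels under 7 in spleen Cre- that filter favours members higher in MLN Cre-. Over all 838, retained or not, 485 passed the rule for a rise and 2 that for a fall, and the median difference was 1.20 (deposited 1.45), with a median level of 5.43 in MLN Cre- and 3.996 in spleen Cre-. These levels are below the threshold of 7 for most of the set. The part of this difference at low levels in the other rises with a low spleen Cre- level was not tested.

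**Figure D1:**
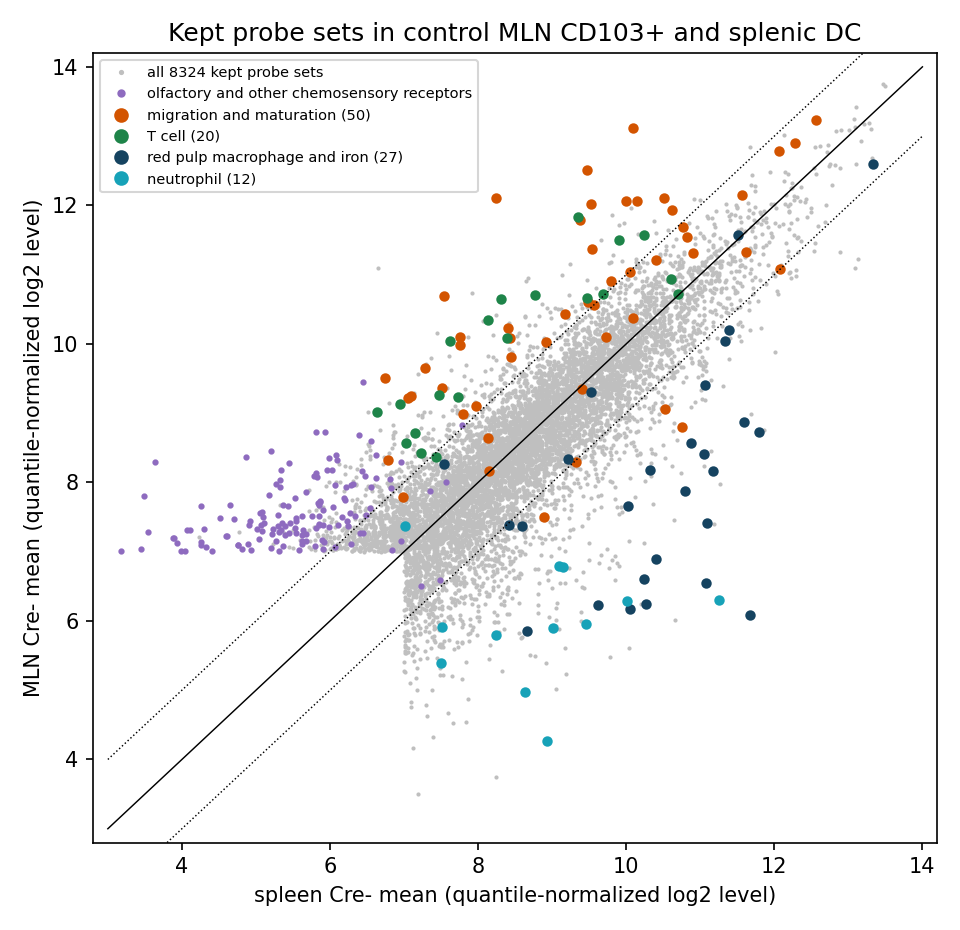
Mean quantile-normalized log2 level of each of the 8324 retained probe sets in MLN Cre- (vertical axis) and spleen Cre- (horizontal axis), 3 arrays each; the solid line is equality, the dotted lines a difference of 1 either way, and coloured points are members of the named groups. Migration and maturation and T cell genes lie mostly above the solid line, red pulp macrophage and neutrophil genes below it, and chemosensory receptors at spleen Cre- levels mostly under 7.

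The markers of the 2 sorts were examined first. Itgae, which encodes CD103, measured 8.47, 8.42 and 8.59 on the MLN Cre- arrays, against 7.02, 6.87 and 6.60 on the spleen Cre- arrays. The groups did not overlap, and Itgae rose by 1.66 (SE 0.159, adjusted p = 1.12e-05; deposited 1.06). Itgax, which encodes CD11c, had no probe set with its symbol alone and was not analysed here. Itgam, the CD11b integrin chain of cDC2, macrophages and neutrophils, measured 7.72, 7.60 and 7.62 in MLN Cre-, against 9.62, 9.84 and 9.53 in spleen Cre-. It fell by 2.02 (SE 0.12, adjusted p = 7.14e-07), and the groups again did not overlap.

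Tgfbr2, the gene targeted in the other arrays of the series, was not deleted in either group. It measured 10.27, 10.34 and 10.01 in MLN Cre-, against 10.36, 10.45 and 10.43 in spleen Cre-. The 3 MLN Cre- arrays lay below the 3 spleen Cre- arrays, and the difference of -0.20 (SE 0.091) did not pass the test (adjusted p = 0.0714), whereas the deposited difference was -1.36 (adjusted p = 7.11e-08). In the arrays labelled as deleted it averaged 9.93 in MLN Cre+ and 10.12 in spleen Cre+, against 10.21 in MLN Cre- and 10.41 in spleen Cre-, so the gene-level probe set does not by itself show the deletion. The labels do not give the deleted part of the gene.

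The rises were led by Aldh1a2, the retinal dehydrogenase that makes retinoic acid. Of the 15 largest rises, 5, Aldh1a2 among them, had a spleen Cre- mean of 7 or less. Among genes that rose on both scales without overlap of the groups, it had the largest difference. Aldh1a2 measured 10.95, 11.04 and 11.28 in MLN Cre-, against 6.71, 6.70 and 6.54 in spleen Cre-, a difference of 4.44 (SE 0.109, adjusted p = 4.91e-09; deposited 3.80). All 3 MLN pools were far above the spleen arrays, which lay close to each other. The chemokine Ccl22, a ligand of CCR4 that attracts regulatory and helper T cells, measured 11.92, 12.17 and 12.23 in MLN Cre-, against 8.35, 8.29 and 8.08 in spleen Cre- (difference 3.87, SE 0.123, adjusted p = 2.29e-08). Ccl17, the other CCR4 ligand, measured 8.88, 9.66 and 9.98 in MLN Cre-, against 6.93, 6.63 and 6.67 in spleen Cre- (difference 2.76, SE 0.257, adjusted p = 9.66e-06). The first MLN pool was the lowest for Ccl17, yet it stood well above the highest spleen array.

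Further rises belonged to the known programme of mature, migrating DC. Fscn1, the actin-bundling protein of DC dendrites, measured 13.03, 13.10 and 13.23 in MLN Cre-, against 10.14, 10.27 and 9.87 in spleen Cre-, a difference of 3.02 (SE 0.174, adjusted p = 5.87e-07). Il4i1, a secreted amino acid oxidase that dampens T cell responses, measured 11.60, 11.71 and 12.08 in MLN Cre-, against 9.53, 9.40 and 9.19 in spleen Cre-, a difference of 2.42 (SE 0.186, adjusted p = 2.98e-06). Apol7c, an apolipoprotein L family member, measured 12.40, 12.51 and 12.63 in MLN Cre-, against 9.59, 9.46 and 9.37 in spleen Cre-, a difference of 3.04 (SE 0.172, adjusted p = 5.32e-07). In each of these genes the MLN Cre- arrays stayed clear of the spleen Cre- arrays. Socs2, a feedback inhibitor of cytokine signalling, rose by 2.50 (adjusted p = 1.74e-07) and the anchoring filament protein gene Lad1 by 3.16 (adjusted p = 1.25e-07). Spsb1, a SOCS box protein gene that is not among the migration and maturation genes counted below, rose by 2.44 (adjusted p = 2.48e-07).

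The remaining genes of the 15 largest rises had diverse roles. Mx1, an interferon-induced GTPase, rose by 2.70 (adjusted p = 3.75e-06), the fucosyltransferase gene Fut2 by 2.97 (adjusted p = 8.27e-06) and the transmembrane protein gene Tm4sf5 by 2.82 (adjusted p = 1.12e-06). Idi2, an isopentenyl diphosphate isomerase, rose by 2.52 (adjusted p = 1.41e-05). Fut2 and Idi2 were low in spleen Cre-, with means of 4.24 and 4.77, and stood just above 7 in MLN Cre-, with means of 7.21 and 7.29. Cd3e, the T cell receptor signalling chain, measured 11.95, 11.77 and 11.78 in MLN Cre-, against 9.13, 9.35 and 9.58 in spleen Cre- (difference 2.48, adjusted p = 0.000133). Izumo1r, a folate receptor family member found on regulatory T cells, rose by 2.50 (adjusted p = 1.07e-06). The rest of the T cell genes are given below.

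**Figure D2:**
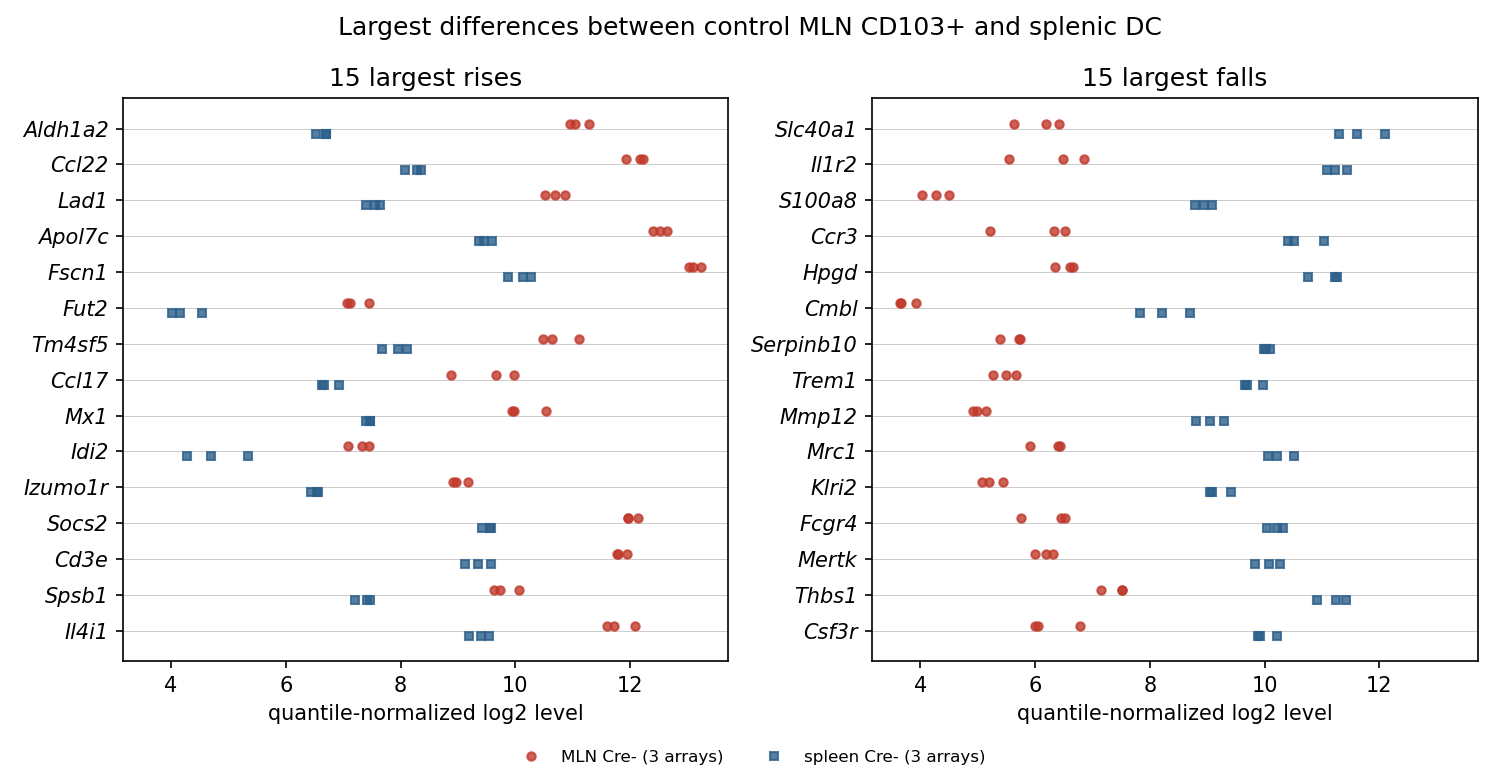
Quantile-normalized log2 level (horizontal axis) of the 15 genes that rose most and the 15 that fell most, in each of the 3 MLN Cre- arrays (circles) and the 3 spleen Cre- arrays (squares). The 30 genes were chosen for large differences without overlap of the groups. The largest mean differences are those of Aldh1a2 at 4.44 and Slc40a1 at -5.59.

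The falls were led by Slc40a1, ferroportin, the iron exporter of macrophages that recycle red cells. Of the 15 largest falls, 14 had an MLN Cre- mean of 7 or less, so the sizes of these differences and their order are those of the fitted values only. Slc40a1 measured 5.63, 6.19 and 6.43 in MLN Cre-, against 12.10, 11.62 and 11.30 in spleen Cre-, a difference of -5.59 (SE 0.241, adjusted p = 1.4e-07; deposited -5.995). Il1r2, the decoy receptor for interleukin-1, measured 6.50, 6.86 and 5.56 in MLN Cre-, against 11.23, 11.43 and 11.09 in spleen Cre- (difference -4.95, SE 0.315, adjusted p = 1.06e-06). The third MLN pool was the lowest for Il1r2, and every spleen array was above 11. S100a8, a calprotectin subunit of neutrophils and monocytes, measured 4.51, 4.27 and 4.03 in MLN Cre-, against 9.08, 8.94 and 8.79 in spleen Cre- (difference -4.66, SE 0.295, adjusted p = 1.04e-06). The eotaxin receptor gene Ccr3 fell by 4.63 (adjusted p = 2.98e-06), with MLN pools spread from 5.21 to 6.52 and spleen arrays from 10.41 to 11.04. Hpgd, which inactivates prostaglandins, fell by 4.54 (adjusted p = 1.84e-08), and the hydrolase gene Cmbl fell by 4.50 (adjusted p = 1.28e-07).

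Most other genes of the 15 largest falls are known from macrophages, monocytes or neutrophils. Fcgr4, an activating receptor for IgG, measured 5.75, 6.46 and 6.53 in MLN Cre-, against 10.22, 10.33 and 10.04 in spleen Cre-, a difference of -3.95 (SE 0.297, adjusted p = 2.63e-06). The mannose receptor gene Mrc1 fell by 4.02, the macrophage elastase gene Mmp12 by 4.03 and Mertk, a receptor kinase for the uptake of dying cells, by 3.88 (adjusted p = 1.4e-07, 2.29e-08 and 2.29e-08). Trem1, which amplifies inflammatory signals in neutrophils and monocytes, fell by 4.29 (adjusted p = 1.42e-07), and Csf3r, the G-CSF receptor of neutrophils, by 3.72 (adjusted p = 8.19e-07). Serpinb10, a serine protease inhibitor, fell by 4.42, Klri2, a lectin-like receptor of NK cells, by 3.95, and Thbs1, thrombospondin, by 3.79 (adjusted p = 3.27e-07, 1.08e-07 and 2e-06). None of these genes had an MLN Cre- array within 2 of a spleen Cre- array.

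Promoter sequences of the genes with the largest differences are shown here because 3 families of factors central to DC, namely PU.1, the interferon regulatory factors and NF-kB, bind short, recognisable letters. RefSeq promoters of GRCm38.p6, from 250 bases before to 50 after the start, were found for 12 of the 15 rises and 12 of the 15 falls. On either strand, the PU.1-type motif GAGGAAGT was in the promoters of Tm4sf5 and Il4i1 among the rises and of S100a8, Mmp12 and Fcgr4 among the falls, against 3.69% of all 27025 genes in the table. The interferon response motif, 2 copies of GAAA with any 2 bases between them, was in those of Apol7c among the rises and Fcgr4 among the falls, against 3.99% of all genes. The kappa B motif, GGG and TTTCC with any 2 bases between them, was in none of the 12 rises and in that of Ccr3 among the falls, against 1.89% of all genes. The promoters of Apol7c (chr15:77533266-77533565, minus strand), Il4i1 (chr7:44836038-44836337, plus strand), Fcgr4 (chr1:171018676-171018975, plus strand) and S100a8 (chr3:90668821-90669120, plus strand) are given 5′ to 3′, and capitals mark the motif matches.
Apol7c: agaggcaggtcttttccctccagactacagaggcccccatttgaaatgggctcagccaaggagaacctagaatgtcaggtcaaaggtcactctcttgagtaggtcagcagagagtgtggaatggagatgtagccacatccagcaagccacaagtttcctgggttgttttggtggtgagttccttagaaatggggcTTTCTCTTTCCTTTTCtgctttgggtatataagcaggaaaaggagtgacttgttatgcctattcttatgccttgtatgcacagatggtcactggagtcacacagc
Il4i1: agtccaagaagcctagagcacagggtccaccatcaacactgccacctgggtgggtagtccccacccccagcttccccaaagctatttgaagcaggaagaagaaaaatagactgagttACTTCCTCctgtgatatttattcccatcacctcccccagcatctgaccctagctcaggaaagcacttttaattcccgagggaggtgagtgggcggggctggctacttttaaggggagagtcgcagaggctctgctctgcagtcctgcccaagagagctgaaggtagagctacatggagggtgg
Fcgr4: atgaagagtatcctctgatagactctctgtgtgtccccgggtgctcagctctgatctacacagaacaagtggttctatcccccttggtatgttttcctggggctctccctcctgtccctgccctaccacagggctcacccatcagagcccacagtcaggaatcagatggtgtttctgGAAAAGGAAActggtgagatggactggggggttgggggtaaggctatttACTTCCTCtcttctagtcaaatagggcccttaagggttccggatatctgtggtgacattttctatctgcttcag
S100a8: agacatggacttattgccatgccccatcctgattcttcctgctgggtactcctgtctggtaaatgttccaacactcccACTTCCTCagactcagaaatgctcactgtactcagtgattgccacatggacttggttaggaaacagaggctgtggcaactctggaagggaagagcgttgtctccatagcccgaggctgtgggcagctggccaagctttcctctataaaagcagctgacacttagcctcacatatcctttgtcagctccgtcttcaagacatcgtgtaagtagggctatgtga
In Apol7c, 2 overlapping interferon response matches, read on the opposite strand, began at positions -55 and -49 from the start. In Fcgr4 an interferon response match began at -73 and a PU.1-type match, on the opposite strand, at -24. The PU.1-type matches of Il4i1 and S100a8, also on the opposite strand, began at -133 and -172. A match is a run of letters and not a measured binding site, and the same PU.1-type letters stood in genes that rose and in genes that fell.

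Genes of DC migration and maturation mostly rose. Of 51 measured, 50 were retained. Of these, 29 rose, 4 fell and 17 did neither, against 6.66% and 9.51% of all retained probe sets. The median difference over the 51 was 1.12 (deposited 0.24), against 0.09 (deposited -0.35) over all 14520 probe sets with 1 symbol on neither X nor Y. The list holds genes known from mature DC in many tissues, and 14 of the 29 rises were rises on both scales. Beside those above, Tnfrsf4, the costimulatory receptor OX40 that activated and regulatory T cells carry, rose by 2.34 (adjusted p = 2.77e-07) and the adenylate cyclase gene Adcy6 by 2.37 (adjusted p = 8.96e-07). In the same contrast 17 of 20 retained T cell genes rose, and their part in the rise of Tnfrsf4 was not tested.

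The receptor and surface proteins that define this programme did not all move with it. Ccr7, the receptor that brings DC to lymph nodes, measured 13.16, 13.21 and 13.33 in MLN Cre-, against 12.43, 12.53 and 12.72 in spleen Cre-. The groups did not overlap, but the difference of 0.67 (SE 0.092, adjusted p = 0.000116) was under 1, and it was 0.04 on the deposited scale (adjusted p = 0.722). Cd40, through which T cells activate DC, measured 10.04, 9.88 and 10.35 in MLN Cre-, against 8.40, 8.46 and 8.42 in spleen Cre-, and rose by 1.66 (adjusted p = 1.12e-06). The ligands of CD28 went the other way. Cd86 measured 8.78, 9.01 and 8.61 in MLN Cre-, against 10.59, 10.76 and 10.92 in spleen Cre-, and fell by 1.95 (SE 0.175, adjusted p = 7.65e-06). Cd80 measured 8.89, 9.18 and 9.13 in MLN Cre-, against 10.46, 10.49 and 10.63 in spleen Cre-, and fell by 1.46 (SE 0.102, adjusted p = 1.69e-06). Cd83, a maturation marker, had a difference of -0.99 (adjusted p = 2.97e-05), just under the minimum size. The PD-1 ligand genes Cd274 and Pdcd1lg2 had differences of -0.30 (adjusted p = 0.0555, groups overlapping) and 0.80 (adjusted p = 0.000561).

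Over the wider list of costimulatory and checkpoint genes, 4 of 20 retained rose and 8 fell, with a median over the 24 measured of 0.02 (deposited -0.998). Slamf1, a self-binding costimulatory receptor, rose by 1.80 (adjusted p = 6.92e-07). The TNF family ligand genes Tnfsf14, Tnfsf18 and Tnfsf9 fell by 1.79, 1.6 and 1.39 (adjusted p = 5.34e-06, 2.28e-05 and 0.000124). Havcr2, the checkpoint receptor TIM-3, fell by 1.47 and Cd200r1, an inhibitory receptor of myeloid cells, by 1.5 (adjusted p = 1.36e-05 and 4.19e-06).

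**Figure D3:**
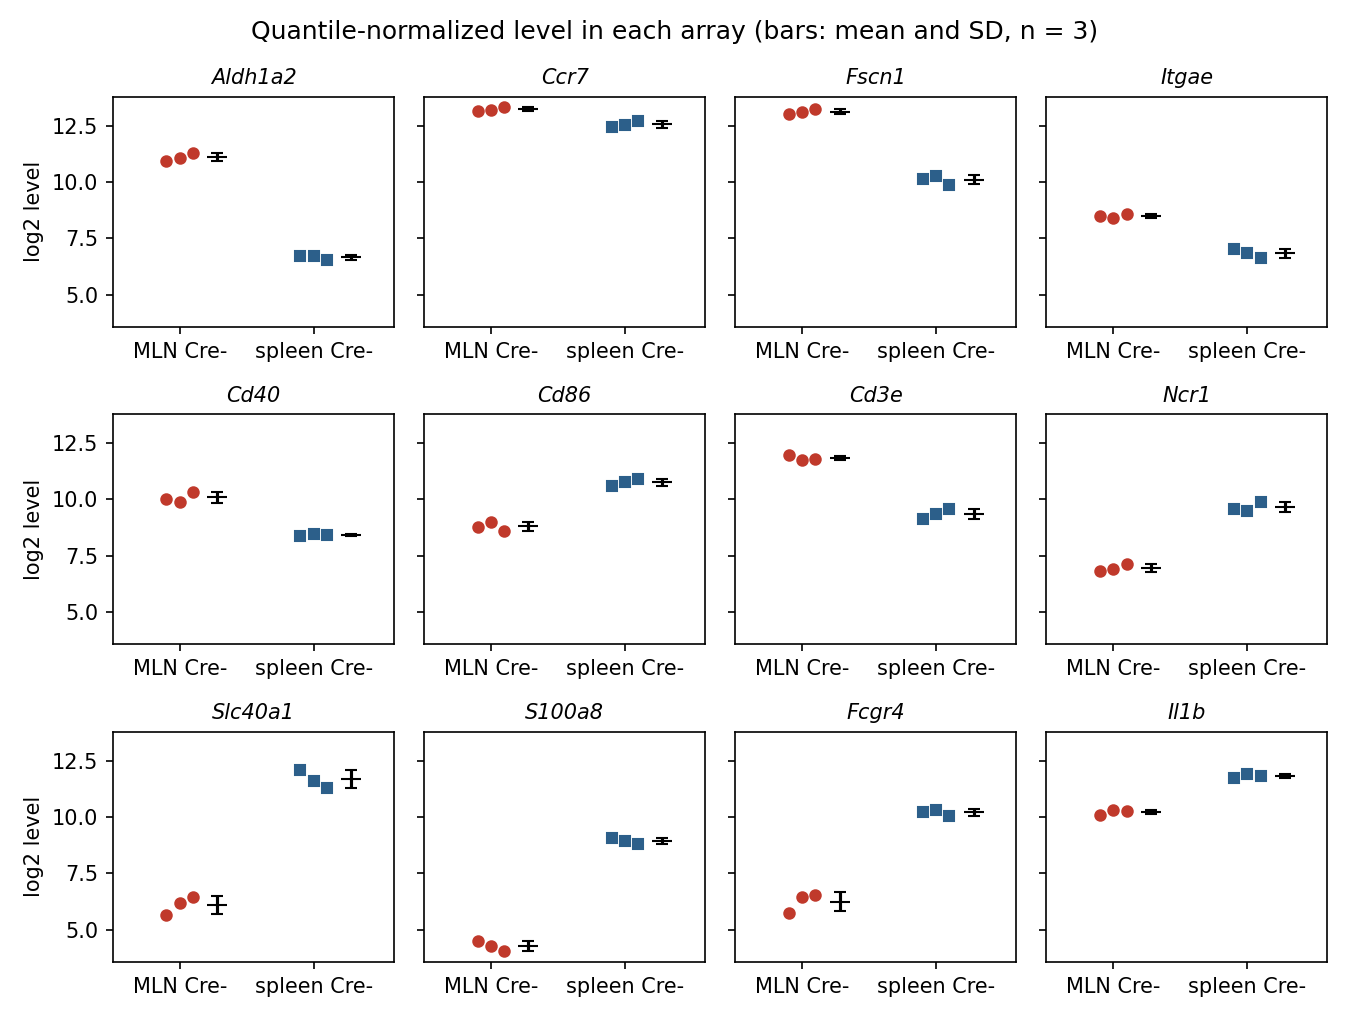
Quantile-normalized log2 level (vertical axis) of 12 genes in each of the 3 MLN Cre- arrays (circles) and the 3 spleen Cre- arrays (squares), with the mean and SD beside them. Ccr7 differs by 0.67, less than Cd40 at 1.66, and Cd86 is lower in MLN Cre- by 1.95.

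Chemokine genes moved in both directions. Of 21 ligand genes retained of 30 measured, 8 rose and 9 fell. Those that rose included, beside Ccl22 and Ccl17, Cxcl16, the ligand of CXCR6, with 12.03, 12.06 and 12.24 in MLN Cre-, against 10.66, 10.57 and 10.29 in spleen Cre- (difference 1.61, adjusted p = 6.87e-06). Those that fell included the neutrophil attractant Cxcl2, with 8.08, 8.43 and 7.42 in MLN Cre-, against 11.16, 11.37 and 11.25 in spleen Cre- (difference -3.28, adjusted p = 5.76e-06). The inflammatory chemokine genes Ccl4 and Ccl3 fell, with differences of -2.70 and -2.003 (adjusted p = 4.01e-06 and 4.83e-05). The XCR1 ligand gene Xcl1 fell by 1.91 (adjusted p = 7.27e-07) and the CCR3 ligand gene Ccl24 by 1.40 (adjusted p = 9.92e-07). Cxcl13, the B cell attractant of follicles, was 10.64, 9.93 and 11.52 in MLN Cre-, against 9.11, 8.39 and 8.74 in spleen Cre- (difference 1.95, SE 0.761, adjusted p = 0.0438), and its adjusted p was up to 0.142 when single arrays were left out. Ccl5, a T cell attractant, differed by 0.72 (adjusted p = 0.00137) and by -0.07 on the deposited scale (adjusted p = 0.579).

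Among 23 chemokine receptor genes retained, 2 rose and 7 fell, with a median of -0.22 over 24 measured (deposited -1.18). The receptors of neutrophils and monocytes were low in MLN Cre-. Ccr1 fell by 3.04 (adjusted p = 9.75e-06), Cxcr2 by 2.31 (adjusted p = 6.67e-06) and Ccr2 by 1.94 (adjusted p = 3.14e-06). S1pr4, a sphingosine phosphate receptor of lymphocytes and DC, rose by 1.20 (adjusted p = 5.66e-05), whereas S1pr3 and the atypical receptor gene Ackr3 fell by 1.66 and 1.55 (adjusted p = 1.92e-05 and 5.15e-06). Ccr9, the gut-homing receptor of T cells that plasmacytoid DC also carry, had overlapping groups, with a difference of 0.27 (adjusted p = 0.0988; deposited -0.87). Cx3cr1, the fractalkine receptor of monocytes and macrophages, differed by -0.29 (adjusted p = 0.00437).

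Genes of retinoic acid and gut imprinting moved in both directions. Of 24 measured, 15 were retained, 3 rose and 4 fell, and the median was -0.03 (deposited -0.17). Ido1, which breaks down tryptophan and restrains T cells, measured 7.85, 7.92 and 8.24 in MLN Cre-, against 6.32, 6.05 and 6.04 in spleen Cre- (difference 1.87, SE 0.146, adjusted p = 3.27e-06). Stra6, the cellular receptor for retinol-binding protein, rose by 1.30 (adjusted p = 0.00204), with the MLN pools between 7.76 and 8.57. Rdh10, the retinol dehydrogenase that acts before Aldh1a2, was lower by -0.96 (adjusted p = 1.52e-05), short of the minimum size. Rxra, the nuclear receptor that pairs with retinoic acid receptors, fell by 1.30, the short-chain dehydrogenase genes Dhrs7 and Dhrs9 by 1.70 and 1.30, and lipoprotein lipase, Lpl, by 1.54 (adjusted p = 1.78e-06, 2.48e-05, 0.000157 and 9.28e-06).

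None of the 26 retained genes of the TGF-beta pathway rose and 5 fell, with a median of -0.32 over 32 measured (deposited -1.23). The ligand gene Tgfb1 differed by -0.32 (adjusted p = 0.0058) and the receptor gene Tgfbr1 by -0.65 (adjusted p = 0.000133). Of the signal transducers, Smad3 differed by -0.85 (adjusted p = 6.23e-05), and the inhibitor Smad7 by -0.80 (adjusted p = 0.00021). Those 4 differences were below 0 and under the minimum size. The target genes Tgfbi, an extracellular matrix protein of macrophages among other cells, and Id1, an inhibitor of basic helix-loop-helix factors, fell by 2.70 and 2.26 (adjusted p = 6.1e-07 and 6.02e-07).

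No gene of the core conventional DC lineage passed the test and the minimum size together. Of 11 retained, none rose or fell, whereas 4 fell on the deposited scale, with a median of 0.21 (deposited -0.57). Flt3, the growth factor receptor of DC, measured 10.68, 10.73 and 11.12 in MLN Cre-, against 10.97, 10.88 and 10.71 in spleen Cre- (difference -0.01, SE 0.129, adjusted p = 0.939). Zbtb46, the transcription factor that marks the lineage, measured 7.84, 7.72 and 8.20 in MLN Cre-, against 7.74, 7.80 and 7.55 in spleen Cre- (difference 0.23, SE 0.145, adjusted p = 0.188; deposited -0.45). The arrays of the 2 tissues overlapped in both genes. Kit, the stem cell factor receptor, differed by -0.43 (adjusted p = 0.00554).

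The cDC1 subset includes some, not all, of the CD103+ cells of lymph nodes, and the CD8 alpha-positive cells of spleen. Its genes rose and fell in shares near those of all retained probe sets. Of 20 retained, 1 rose, namely Itgae, on which the MLN cells were sorted, and 2 fell. With no minimum size, 4 were higher and 9 lower, and 11 members of the list fell on the deposited scale, with a median of -0.41 over 22 measured (deposited -1.08). Xcr1, the chemokine receptor restricted to cDC1, measured 9.52, 9.66 and 9.83 in MLN Cre-, against 9.39, 9.60 and 9.59 in spleen Cre- (difference 0.14, SE 0.193, adjusted p = 0.545; deposited -0.97). Clec9a, the receptor for the actin of dead cells, measured 9.65, 9.93 and 10.11 in MLN Cre-, against 10.003, 10.005 and 10.22 in spleen Cre- (difference -0.18, SE 0.171, adjusted p = 0.385). The groups overlapped in both. Irf8, the transcription factor that cDC1 need, differed by -0.996 (SE 0.066, adjusted p = 1.3e-06), just short of the minimum size, and Tlr3, the sensor of double-stranded RNA, by -0.42 (adjusted p = 0.053). The adhesion molecule gene Cadm1 and the amidase gene Naaa fell by 1.37 and 1.03 (adjusted p = 1.32e-05 and 4.52e-05). Cd8a differed by 0.49 (adjusted p = 0.00638) and by -0.61 on the deposited scale (adjusted p = 0.00488).

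Among genes of the cDC2 subset, falls outnumbered rises. Of 23 retained, 9 fell and 1 rose, with a median of -0.80 over 25 measured (deposited -1.49). Clec4a4, the inhibitory lectin DCIR2 of splenic cDC2, measured 4.68, 4.58 and 5.11 in MLN Cre-, against 7.34, 7.15 and 7.39 in spleen Cre- (difference -2.50, SE 0.173, adjusted p = 1.63e-06). Its relatives Clec4a1 and Clec4a3 fell by 2.91 and 2.36 (adjusted p = 2.32e-07 and 1.92e-05). Sirpa, the CD47 receptor of cDC2 and macrophages, measured 10.05, 10.22 and 10.32 in MLN Cre-, against 11.42, 11.43 and 11.32 in spleen Cre-, and fell by 1.19 (adjusted p = 3.81e-06). Irf4, a transcription factor that cDC2 need, differed by -0.70 (adjusted p = 0.000775), under the minimum size. The list shares Csf1r and Cx3cr1 with the monocyte list and Sirpa with the macrophage list. Cd5, its only rise at 1.94 (adjusted p = 4.51e-06), is also a T cell gene.

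Plasmacytoid DC genes were lower in MLN Cre-. Of 18 retained, none rose and 7 fell, with a median of -0.61 over 19 measured (deposited -1.53). Siglech, a surface lectin typical of these cells, measured 9.69, 9.95 and 9.81 in MLN Cre-, against 10.95, 10.79 and 11.35 in spleen Cre- (difference -1.21, adjusted p = 5.06e-05). Bst2 and the lineage factor gene Tcf4 fell by 1.20 and 1.16 (adjusted p = 4.01e-05 and 1.03e-05), the lectin gene Cd209d by 1.85 (adjusted p = 1.5e-05) and Dntt, a DNA polymerase of lymphoid progenitors, by 2.18 (adjusted p = 5.04e-06).

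**Figure D4:**
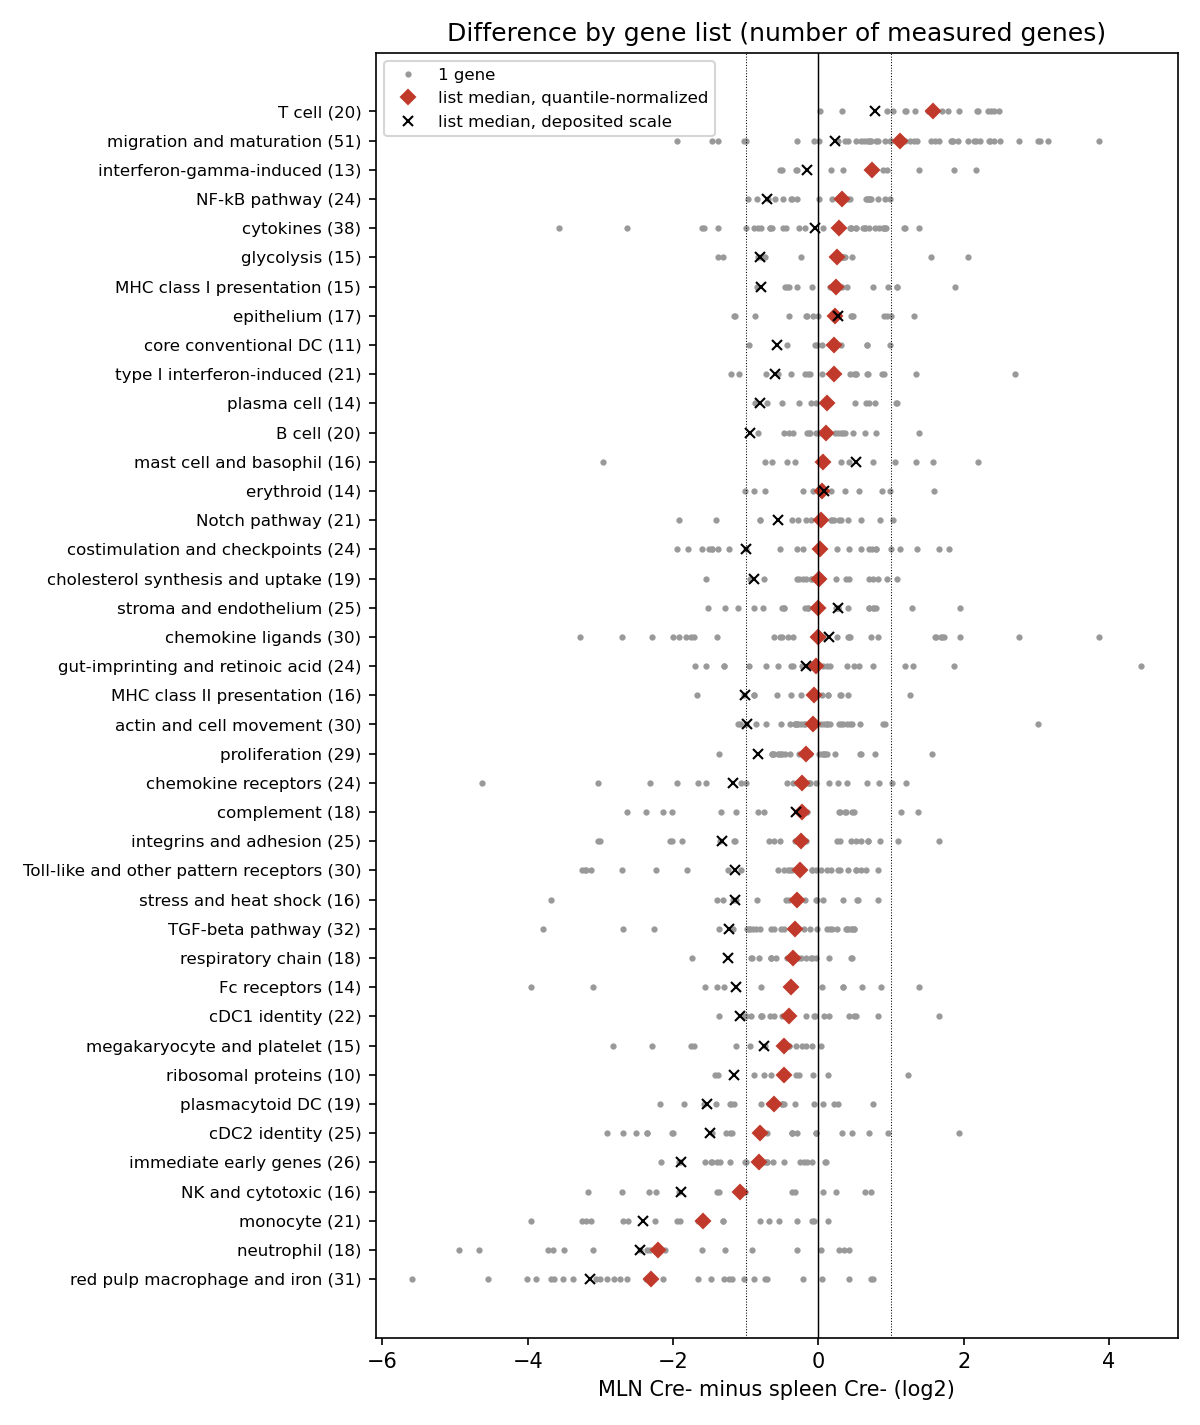
Difference MLN Cre- minus spleen Cre- (log2, horizontal axis) of each measured gene in each gene list (grey points), with the list median on the quantile-normalized scale (diamonds) and on the deposited scale (crosses); dotted lines mark a difference of 1. List medians run from 1.58 for T cell genes to -2.31 for red pulp macrophage and iron genes, and most crosses lie left of their diamonds.

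Red pulp macrophage and iron genes formed the list with the lowest median. Of 27 retained of 31 measured, 22 fell and none rose, and the median was -2.31 (deposited -3.14). The mean level of the list per array was 7.67 to 7.94 in MLN Cre- and 9.76 to 10.07 in spleen Cre-. Spic, the factor that specifies red pulp macrophages, measured 6.08, 6.72 and 7.03 in MLN Cre-, against 10.31, 10.04 and 10.38 in spleen Cre- (difference -3.63, adjusted p = 4.44e-07). Hmox1, which opens the haem ring, measured 7.22, 7.60 and 7.40 in MLN Cre-, against 11.30, 11.07 and 10.91 in spleen Cre- (difference -3.68, adjusted p = 1.06e-06). Vcam1, the adhesion molecule of these macrophages, measured 7.87, 8.12 and 8.48 in MLN Cre-, against 11.34, 11.08 and 11.09 in spleen Cre- (difference -3.01, adjusted p = 7.59e-07). In all 3 genes each MLN pool was more than 2 below each spleen array. The haemoglobin scavenger receptor gene Cd163, the secreted scavenger protein gene Cd5l, the ficolin gene Fcna and the receptor kinase gene Axl also fell, with differences of -2.82, -3.38, -3.52 and -3.06 (adjusted p = 5.43e-08, 7.01e-07, 1.25e-07 and 1.41e-07).

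Monocyte and neutrophil genes fell as well. Of 17 monocyte genes retained, 12 fell and none rose, with a median of -1.59 over 21 measured and a mean level of 7.33 to 7.49 in MLN Cre- and 9.07 in spleen Cre-. Cd14, the lipopolysaccharide coreceptor, measured 6.44, 6.84 and 6.49 in MLN Cre-, against 10.02, 9.91 and 9.61 in spleen Cre- (difference -3.26, adjusted p = 1.01e-05). Csf1r, the receptor for macrophage colony-stimulating factor, measured 8.62, 9.16 and 9.21 in MLN Cre-, against 11.80, 11.73 and 11.52 in spleen Cre- (difference -2.69, adjusted p = 5.5e-07). No array of one tissue reached the level of the other in these 2 genes. Of 12 neutrophil genes retained of 18 measured, 11 fell, the median was -2.21 over all 18, and the mean level was 5.90 to 5.95 in MLN Cre- and 7.84 to 8.05 in spleen Cre-. The granule protein genes Ngp and Lcn2, Retnlg and the second calprotectin subunit gene S100a9 were among them, with differences of -3.65, -3.10, -3.50 and -2.45 (adjusted p = 1.12e-06, 4.87e-06, 7.33e-05 and 0.000168). The part of macrophages, monocytes and neutrophils among the magnetically sorted CD11c+ cells in the falls was not tested.

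T cell genes rose. Of 20 retained, 17 rose and none fell, 6 of them on both scales, with a median of 1.58 (deposited 0.78). The mean level of the list per array was 9.91 to 10.16 in MLN Cre- and 8.33 to 8.59 in spleen Cre-, so neither tissue was without these transcripts. Cd3d, another chain of the receptor complex, measured 9.01, 8.54 and 8.61 in MLN Cre-, against 7.15, 7.1 and 7.20 in spleen Cre- (difference 1.57, adjusted p = 0.000329). Cd3g rose by 1.19 (adjusted p = 0.00265), the surface glycoprotein gene Thy1 by 2.42 (adjusted p = 3.06e-05) and the signalling adaptor gene Lat by 2.34 (adjusted p = 1.1e-05). Themis, which acts in thymocyte selection, rose by 2.38 and the transcription factor gene Lef1 by 2.20 (adjusted p = 7.31e-05 and 2.18e-05). Cd28, the receptor of CD80 and CD86, rose by 1.03 (adjusted p = 0.0106), with a deposited difference of -0.07 (adjusted p = 0.836). The part of T cells in the MLN sort in these rises was not tested.

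B cell genes were high in both tissues. Of 20 retained, 1 rose and none fell, whereas 10 fell on the deposited scale, with a median of 0.11 (deposited -0.94) and a mean level of 10.60 to 10.81 in MLN Cre- and 10.47 to 10.77 in spleen Cre-. Ms4a1, which encodes CD20, measured 11.19, 11.20 and 11.10 in MLN Cre-, against 10.96, 11.09 and 11.53 in spleen Cre- (difference -0.03, adjusted p = 0.865), and the groups overlapped. The antigen receptor chain genes Cd79a and Cd79b differed by 0.27 and 0.15 (adjusted p = 0.304 and 0.209; deposited -0.50 and -0.52), and the lineage factor gene Pax5 by -0.11 (adjusted p = 0.429). The 1 rise was Fcer2a, the low-affinity IgE receptor CD23, at 1.38 (adjusted p = 0.000254).

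Genes of natural killer cells and cytotoxicity fell in 7 of 12 retained and rose in none, with a median of -1.08 over 16 measured (deposited -1.90). When single arrays were left out the count lay between 4 and 8. Ncr1, the activating receptor NKp46, measured 6.81, 6.91 and 7.15 in MLN Cre-, against 9.58, 9.49 and 9.91 in spleen Cre- (difference -2.70, adjusted p = 4.11e-06). Gzma, granzyme A, measured 9.05, 7.06 and 7.24 in MLN Cre-, against 9.94, 10.11 and 10.31 in spleen Cre-, and its first MLN pool stood apart above the others (difference -2.34, SE 0.492, adjusted p = 0.00189). The perforin gene Prf1 fell by 1.07 (adjusted p = 0.000597). Of 9 megakaryocyte and platelet genes retained, 3 fell and none rose, among them Clec1b, the platelet receptor CLEC-2, by 2.83 and the platelet chemokine gene Ppbp by 2.28 (adjusted p = 9.89e-08 and 7.97e-05).

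Stromal, endothelial, epithelial, mast cell, basophil and erythroid genes were mostly below the threshold of 7, whereas plasma cell genes were mostly above it. Of 25 stromal and endothelial genes measured, 10 were retained, 2 rose and 2 fell. Of 17 epithelial genes measured, 4 were retained, of which Cdh1, E-cadherin, fell by 1.16 and Epcam by 1.14 (adjusted p = 1.94e-05 and 3.12e-05). Both are also carried by some DC. Of 16 mast cell and basophil genes measured, 4 were retained, of which 1 rose, on both scales, and 1 fell. The fall was that of Hdc, which makes histamine, by 2.96 (adjusted p = 1.43e-06). The median over the 16 was 0.06 (deposited 0.52). Of 14 erythroid genes, 2 were retained and 1 rose. Of 14 plasma cell genes measured, 12 were retained and 1 rose.

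Receptors that sense microbes did not rise in MLN Cre-. Of 28 Toll-like and other pattern receptor genes retained, 8 fell, with a median of -0.26 over 30 measured (deposited -1.14). Tlr4, the lipopolysaccharide receptor, measured 6.10, 5.88 and 5.96 in MLN Cre-, against 8.43, 8.08 and 8.11 in spleen Cre- (difference -2.23, adjusted p = 2.32e-07). Nlrp3, the inflammasome sensor, measured 7.08, 7.26 and 6.79 in MLN Cre-, against 9.74, 9.83 and 9.66 in spleen Cre- (difference -2.70, adjusted p = 1.19e-07). The C-type lectins of fungal recognition moved with them, and Clec4d, Clec4e and Clec4n fell by 3.20, 3.12 and 3.21 (adjusted p = 1.68e-06, 1.31e-06 and 9.63e-07). Clec7a, dectin-1, fell by 1.81 (adjusted p = 1.34e-06). Tlr2, which senses bacterial lipopeptides, differed by -0.48 (adjusted p = 0.0121), and Tlr9, the sensor of bacterial DNA, by 0.04 with overlapping groups (adjusted p = 0.765; deposited -1.11). Cd14, Clec4d and Clec4e are also in the monocyte list.

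Falls outnumbered rises among Fc receptor, complement and integrin genes. Of 11 Fc receptor genes retained, 5 fell and 1 rose. Fcgr3, the low-affinity IgG receptor, measured 6.74, 6.78 and 6.87 in MLN Cre-, against 9.83, 9.95 and 9.93 in spleen Cre- (difference -3.11, adjusted p = 1.14e-08). The high-affinity receptor gene Fcgr1 and the shared signalling chain gene Fcer1g fell by 1.57 and 1.30 (adjusted p = 1.18e-05 and 5.12e-06). Of 11 complement genes retained, 6 fell and 2 rose, and the C1q chain genes C1qa, C1qb and C1qc fell by 2.14, 2.64 and 2.37 (adjusted p = 1.86e-06, 9.89e-07 and 4.11e-06). Factor B, Cfb, rose by 1.38 (adjusted p = 0.000169). Of 24 integrin and adhesion genes retained, 8 fell and 2 rose, and the largest fall was that of Itga9 at -3.04 (adjusted p = 1.4e-07). Itgb7, the partner chain of CD103, differed by 0.69 (adjusted p = 3.56e-05) on the quantile-normalized and by -0.38 on the deposited scale.

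Several cytokine genes of inflammation fell. Of 24 retained of 38 measured, 5 fell and 2 rose, with a median of 0.28 (deposited -0.04). The cytokine list as a whole was evenly split, with 12 called higher and 12 called lower when no minimum size was asked. Il1b measured 10.11, 10.29 and 10.27 in MLN Cre-, against 11.74, 11.91 and 11.82 in spleen Cre- (difference -1.6, SE 0.19, adjusted p = 4.42e-05). Tnf measured 9.26, 9.40 and 9.02 in MLN Cre-, against 10.50, 10.65 and 10.68 in spleen Cre- (difference -1.38, SE 0.133, adjusted p = 1.17e-05). The groups did not overlap in either gene. Il1a fell by 3.57 and Il18 by 2.63 (adjusted p = 1.84e-08 and 7.01e-07). Il10, an anti-inflammatory cytokine, was lower by -0.996 (SE 0.28, adjusted p = 0.00973), with MLN pools between 5.62 and 6.62. Il15, which sustains memory and natural killer cells, rose by 1.19 (adjusted p = 1.38e-05), and its deposited difference was 0.33 (adjusted p = 0.0697).

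Few antigen presentation genes of class I or class II rose or fell. Rises were 20% of retained class I and 0% of class II genes, against 6.66% of all retained probe sets. Falls were 0% of class I and 13.3% of class II genes, against 9.51%. Of 15 class II genes retained, none rose and 2 fell, namely the lysosomal protease genes Ctsl and Ctsd, by 1.67 and 1.03 (adjusted p = 5.8e-06 and 6.28e-06). On the deposited scale 8 class II and 6 class I genes fell. H2-Aa, a class II alpha chain, measured 13.13, 13.15 and 13.12 in MLN Cre-, against 13.10, 13.04 and 13.12 in spleen Cre- (difference 0.05, adjusted p = 0.493; deposited -0.57). Cd74, the invariant chain, differed by 0.32 (adjusted p = 0.000876; deposited -0.19). Of 15 class I genes retained, 3 rose and none fell, and none of the 3 was a rise on both scales. They were Tapbpl, an editor of bound peptides, at 1.88, and the peptide-loading genes Tap1 at 1.08 and Tapbp at 1.08 (adjusted p = 4.65e-07, 8.57e-06 and 3.15e-06). Their deposited differences were 0.85, -0.01 and 0.10.

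A few interferon-induced genes rose. Of 12 retained genes induced by interferon gamma, 3 rose and none fell, with a median of 0.73 over 13 measured (deposited -0.15). Gbp2, an interferon-induced GTPase, measured 10.34, 10.24 and 10.67 in MLN Cre-, against 8.38, 8.25 and 8.11 in spleen Cre- (difference 2.17, SE 0.203, adjusted p = 9.98e-06), and its relative Gbp5 rose by 1.39 (adjusted p = 2.96e-05). Of 19 genes induced by type I interferon, 2 rose, namely Mx1 and Oasl1, the second by 1.34 (adjusted p = 2e-05), and 1 fell, namely Bst2. The median of that list was 0.21 (deposited -0.59). The last 2 medians changed sign between the scales.

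Of the Notch pathway genes, 1 of 17 rose and 2 fell. Hes1, a Notch target, measured 7.38, 7.31 and 7.26 in MLN Cre-, against 9.26, 9.35 and 9.12 in spleen Cre- (difference -1.92, adjusted p = 2.21e-07), and the receptor gene Notch2, which splenic cDC2 need, differed by -0.80 (adjusted p = 2.92e-05). None of the 24 NF-kB pathway genes rose or fell, but 8 fell on the deposited scale and 8 after a shift of all arrays to one median. The median was 0.32 (deposited -0.70), and with no minimum size 13 were higher and 7 lower. Rela differed by 0.92 (adjusted p = 1.56e-05; deposited -0.17) and Rel by -0.60 (adjusted p = 0.000665). Nfkb2 of the alternative pathway differed by 0.37 (adjusted p = 0.0116; deposited -0.75).

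Immediate early genes, which respond within minutes to stimulation and to cell handling, were lower in MLN Cre-. Of 26 retained, 10 fell and none rose, with a median of -0.81 (deposited -1.89) and a mean level of 9.88 to 10.33 in MLN Cre- and 11.02 to 11.07 in spleen Cre-. Nr4a1, an orphan nuclear receptor, measured 11.51, 11.62 and 10.54 in MLN Cre-, against 13.06, 13.15 and 13.18 in spleen Cre- (difference -1.91, adjusted p = 7.76e-05). Jun measured 11.15, 11.28 and 10.79 in MLN Cre-, against 12.26, 12.37 and 12.25 in spleen Cre- (difference -1.22, adjusted p = 2.31e-05). Fos measured 11.71, 11.84 and 11.06 in MLN Cre-, against 11.60, 11.78 and 11.82 in spleen Cre-, with overlapping groups (difference -0.19, adjusted p = 0.402). The third MLN pool was the lowest in all 3 genes. Ier3, Fosl2, Atf3 and Ier2 fell by 2.17, 1.92, 1.56 and 1.48 (adjusted p = 5.46e-07, 4.33e-06, 3.57e-05 and 0.000183), while Egr1 differed by -0.85 (adjusted p = 0.00097). The part of the unlike sorting methods in these differences, and in those of Tnf, Il1b, Cxcl2, Ccl3 and Ccl4, which the same stimuli induce, was not tested. Of 15 stress and heat shock genes retained, 4 fell, among them the chaperone gene Hspa5 by 1.17 (adjusted p = 4.5e-06), and none rose.

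Genes of metabolism, protein synthesis and proliferation were examined as well. Of 17 respiratory chain genes retained, none rose or fell. With no minimum size, 2 were higher and 9 lower, and 11 fell on the deposited scale and 6 after the median shift, with a median of -0.35 (deposited -1.24). Sdha of complex II differed by -0.43 and Cox4i1 of complex IV by -0.65 (adjusted p = 0.00119 and 0.00414). Of 14 glycolysis genes retained, 2 rose and 2 fell, and with no minimum size 6 were higher and 7 lower. Pfkfb3, which makes the activator of phosphofructokinase, measured 11.71, 11.80 and 12.08 in MLN Cre-, against 9.84, 9.93 and 9.64 in spleen Cre- (difference 2.06, adjusted p = 1.68e-06). Hexokinase 2, Hk2, and the glucose transporter gene Slc2a3 fell by 1.39 and 1.31 (adjusted p = 1.78e-06 and 5.28e-06). Of 22 proliferation genes, 1 rose, Cdc20 of the anaphase-promoting complex at 1.56 (adjusted p = 1.59e-05), and none fell. Mki67, the proliferation antigen, differed by -0.62 (adjusted p = 0.00169) and Top2a by -0.27 (adjusted p = 0.111). Of 7 ribosomal protein genes retained, 1 rose and none fell. Of 18 cholesterol genes, 1 rose and 1 fell, the second being Nr1h3, the oxysterol receptor LXR alpha, at -1.54 (adjusted p = 1.94e-05). Of 28 actin and cell movement genes, 1 rose, namely Fscn1, and 1 fell, the cofilin gene Cfl1, by 1.11 (adjusted p = 0.00581).

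The same contrast in the 6 arrays of Cre+ mice, with Tgfbr2 targeted in DC, compared none of the arrays compared above. It is not an independent replication, since both contrasts came from 1 fit with a shared spread and scaling. The 8324 probe sets were also retained by their Cre- levels. Over all 23332 probe sets, 13535 differed in Cre+ mice at an adjusted p under 0.05 (58%). By the rule with the minimum size, 396 of the 8324 retained probe sets rose (4.76%) and 642 fell (7.71%). Of the 554 rises in Cre- mice, 356 were also rises in Cre+ mice, and for 532 the 3 MLN Cre+ arrays lay wholly above the 3 spleen Cre+ arrays. Of the 792 falls in Cre- mice, 553 were also falls in Cre+ mice, and for 784 the MLN Cre+ arrays lay wholly below. The share of all 8324 probe sets without overlap in Cre+ mice was not counted, so the 532 and 784 cannot be read against it. In Cre- mice that share was 77.0%. The differences of the 2 genotypes correlated with r = 0.949 over the 8324 probe sets, which share the scaling and are not independent. Aldh1a2 differed by 4.40 in Cre+ mice, Ccl22 by 3.70, Fscn1 by 3.005, Slc40a1 by -4.20, S100a8 by -5.50 and Cd3e by 2.10. Itgae differed by 0.89 in Cre+ mice, less than 1.

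The difference between the tissues itself differed between the genotypes for 16 of the 8324 retained probe sets (0.192%), by the interaction term at an adjusted p under 0.05. Over all 23332 probe sets it did for 27 (0.116%), and 2970 had an unadjusted p under 0.05. The number of calls moved widely when single arrays were left out. The limma count over all probe sets was 0 after omission of array 1 of spleen Cre- (2487 at an unadjusted p under 0.05) or array 3 of MLN Cre+ (2591), and 48 after omission of array 3 of spleen Cre-. Omission of array 2 of spleen Cre- or array 1 of MLN Cre+ gave 1, that of array 2 of MLN Cre- gave 2, and that of array 2 of MLN Cre+ gave 3. Omitting array 1 of MLN Cre- or any spleen Cre+ array gave between 11 and 17 calls, and omitting array 3 of MLN Cre- gave 31. The values of single genes are given with that limit.

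The largest interaction among the 16 was that of Mertk, with means of 6.94 in MLN and 9.25 in spleen of Cre+ mice, against 6.17 in MLN and 10.06 in spleen of Cre- mice. The difference of the differences was 1.58 (SE 0.176, adjusted p = 0.0178), it ranged from 1.45 to 1.68 when single arrays were left out, and it passed the test in 6 of the 12 omissions. Lrp1, a scavenger receptor, differed by -1.67 in Cre+ mice and -3.11 in Cre- mice (interaction 1.44, adjusted p = 0.0398, passing in 3 of 12 omissions). Fcna differed by -2.16 in Cre+ mice and -3.52 in Cre- mice (interaction 1.36, adjusted p = 0.0476, passing in 1 of 12). Ppp1r1a, an inhibitor of protein phosphatase 1, differed by 0.71 in Cre+ mice and 2.14 in Cre- mice (interaction -1.43, adjusted p = 0.0178, passing in 9 of 12). Cldn1, a tight junction protein, differed by -1.08 in Cre+ mice and by 0.45 in Cre- mice, where the deposited difference was -0.10 (interaction -1.54, adjusted p = 0.026, passing in 3 of 12). Each of the 5 kept its direction in all 12 omissions. The MLN Cre- means of Mertk and Fcna, 6.17 and 6.89, are under 7 and not shown to lie above background. The same holds for Ppp1r1a in spleen Cre-, at 6.12, and Cldn1 in MLN Cre+, at 5.92. With the replicate number as a block none of the 5 passed, with adjusted p between 0.0577 for Ppp1r1a and 0.101 for Fcna.

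**Figure D5:**
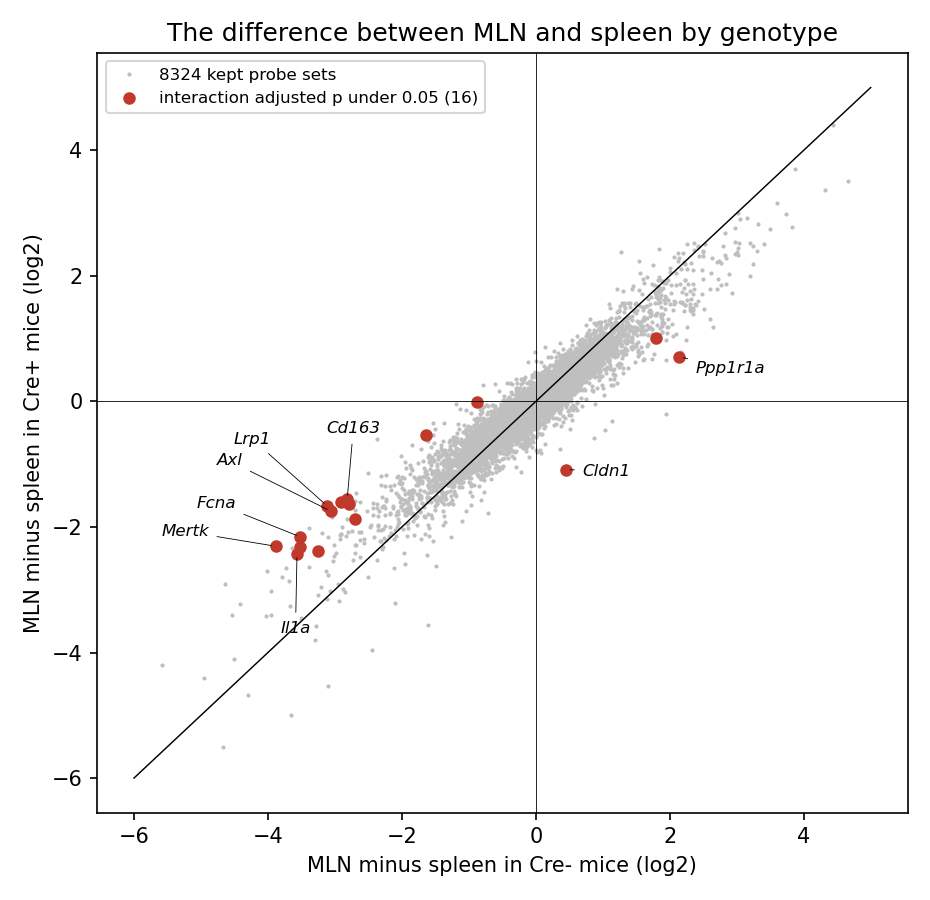
Difference MLN minus spleen (log2) in Cre+ mice (vertical axis) against that in Cre- mice (horizontal axis) for the 8324 retained probe sets; the line is equality and red points are the 16 with an interaction adjusted p under 0.05. The points follow the line (r = 0.949), and most red points in the lower left lie above it, as Mertk does with -2.31 in Cre+ and -3.88 in Cre- mice.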

How the data were processed

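RNA of 12 samples, 3 for each of 4 groups (MLN Cre+, MLN Cre-, spleen Cre+ and spleen Cre-), had been hybridised to Affymetrix Mouse Exon 1.0 ST arrays. The deposited log2 values were RMA expression values made at gene level in GeneSpring, per the labels; their range fits a log2 scale. The version of the software, the probe annotation, the build and whether the tissues were normalized together are not stated in the labels. For MLN Cre+ the field for cell type names Cre- mice, against title and genotype, which were followed.

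The 12 arrays were quantile-normalized together with limma 3.58.1 in R 4.3.3. A limma model of 4 group means was fitted to all 12 arrays over 23332 probe sets, with 8 residual and 2.29 prior degrees of freedom. Two-sided p-values were adjusted over all 23332 by Benjamini-Hochberg, and errors are standard errors of the model or SDs over 3 arrays. The fit was also made on the deposited values. Of the probe sets, 14996 had 1 gene symbol in the platform annotation, 1019 several and 7317 none. Of the 14996, 14941 were found in the GRCm38.p6 gene table, and 476 on X or Y were left out. List genes with several probe sets entered by the one of highest mean.

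The members, the gene lists and the tests were chosen with earlier results of these data known. Named genes were Tgfbr2, the 15 largest rises and 15 largest falls on both scales without overlap, the defining members of each list with up to 6 others of largest difference, and the 5 largest interactions. The 30 left out predicted genes, antigen receptor segments, small RNAs, histones and chemosensory receptors. The steps were tested on simulated data. Nothing in the labels says that the spleen samples came from separate mice, so p-values measure the spread between these samples, and the number of arrays limits precision. Other scales, filters, spread estimates, weights, a replicate block and omission of single arrays were tried as alternatives.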

Additional observations from a re-analysis of the deposited data

Results flagged for a closer look

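By the limma interaction term at an adjusted p under 0.05, the difference between MLN and spleen varied with genotype for 8 named genes. Mertk, Cldn1, Lrp1, Ppp1r1a and Fcna met a naming rule based on the size of this interaction. The count of 8 was therefore partly fixed by selection on the same term and does not measure how common such differences are. Over all 23332 probe sets the term passed for 27 (0.116%). That number was 0 with the replicate number as a block, and 0 without array 1 of spleen Cre-. The interaction, Cre+ difference minus Cre- difference, was 1.578 for Mertk, 1.445 for Lrp1, 1.358 for Fcna, 1.307 for Axl, 1.255 for Cd163 and 1.144 for Il1a, whose falls in MLN were smaller in Cre+ mice than in Cre- mice. It was -1.537 for Cldn1 and -1.431 for Ppp1r1a. Adjusted p over all 23332 probe sets lay at 0.0178 for Mertk, 0.026 for Cldn1, 0.0398 for Lrp1, 0.0178 for Ppp1r1a, 0.0476 for Fcna, 0.0398 for Axl, 0.0178 for Cd163 and 0.0272 for Il1a. With single arrays left out, Ppp1r1a passed in 9 of 12 omissions, Cd163 in 7, Mertk in 6, Lrp1 and Cldn1 in 3 each, and Fcna, Axl and Il1a in 1 each, and all 8 kept their sign. None of the 8 passed with the replicate number as a block, where adjusted p lay between 0.0577 and 0.109. Mertk, Lrp1, Fcna, Axl, Cd163 and Il1a had higher means in MLN Cre+ than in MLN Cre- and lower means in spleen Cre+ than in spleen Cre-. The means of Cd163 were 5.98 in MLN Cre+ and 7.54 in spleen Cre+, against 5.85 in MLN Cre- and 8.67 in spleen Cre-. Its MLN levels are under 7 and not shown to lie above background. The same holds for the MLN Cre- means of Mertk, Fcna and Il1a, 6.17, 6.89 and 5.61. It also holds for Ppp1r1a in spleen Cre-, at 6.12, and Cldn1 in MLN Cre+, at 5.92.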

How the results depend on the processing

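Alternatives for the gene lists, for the Cre+ contrast beyond the deposited scale and for the interaction beyond the deposited scale were chosen after seeing the data. Of 14962 probe sets called at an adjusted p under 0.05, 9107 were called with dim probe sets left out, a fit of fewer probe sets, and 13723 to 15077 when single arrays were left out. The count of retained probe sets called with a difference of at least 1, 1346, was 3874 on the deposited values and 2611 with arrays shifted to one median, 879 when a mean above 8 was required, and 1246 to 1447 when single arrays were left out. The split moved with the scale, with 554 higher and 792 lower after quantile normalization, 185 higher and 3689 lower on the deposited values, and 332 higher and 2279 lower after the median shift, the level of 7 being applied on each scale. The Cre+ count of 13535 was 8578 with dim probe sets left out and 11982 to 13651 when single arrays were left out. The interaction count of 27 was 38 on the deposited values, 46 after the median shift, 83 with dim probe sets left out, 423 with array weights, and 0 to 48 when single arrays were left out; the cause was not tested. Whether replicate numbers pair the samples was not settled. Same-numbered arrays deviated from their group means with correlations of -0.01, -0.013 and -0.033 in Cre- and -0.043, 0.011 and -0.085 in Cre+ mice. These values cannot decide it, because arrays of unlike number were not compared. With the replicate number as a block, limma called 14779 probe sets in Cre- mice, 1347 of them retained with a difference of at least 1, and 13295 in Cre+ mice; the interaction count was 0, with 2887 at an unadjusted p under 0.05. No other tool was run. Of 191 named genes, 175 were called and 173 of these in every omission, the exceptions being Cxcl13 (adjusted p up to 0.142) and Cldn1 (up to 0.0578). The direction and call held for 159 on the deposited, shifted and loess scales, for 174 in the 6 Cre- arrays alone (Cldn1 was lost), and for 175 under each of dim filter, trend and robust spread, weights and block. Differences that turned negative on the deposited scale were -0.071 for Ccl5, -0.871 for Ccr9, -0.07 for Cd28, -0.186 for Cd74, -0.502 for Cd79a, -0.515 for Cd79b, -0.614 for Cd8a, -0.102 for Cldn1, -0.574 for H2-Aa, -0.377 for Itgb7, -0.749 for Nfkb2, -0.167 for Rela, -0.014 for Tap1, -1.11 for Tlr9, -0.974 for Xcr1 and -0.448 for Zbtb46. After the median shift they were -0.576 for Ccr9, -0.207 for Cd79a, -0.221 for Cd79b, -0.319 for Cd8a, -0.279 for H2-Aa, -0.082 for Itgb7, -0.454 for Nfkb2, -0.816 for Tlr9, -0.679 for Xcr1 and -0.153 for Zbtb46. Among the lists, rises in migration and maturation genes were 29 on the quantile-normalized and 14 on the deposited scale, and T cell rises 17 and 6. Falls moved too, from the quantile-normalized to the deposited scale, with 0 and 11 in respiratory chain, 0 and 8 in NF-kB, 0 and 10 in B cell, 2 and 11 in cDC1, 1 and 14 in actin, 5 and 18 in TGF-beta, 10 and 22 in immediate early and 8 and 18 in pattern receptor genes.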
